A study of Bos taurus with 15 samples.

Results

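The genes described here are 10 regulators that glucocorticoids are best known for inducing: TSC22D3, KLF9, KLF15, ZBTB16, DUSP1, SGK1, DDIT4, CEBPD, ERRFI1 and NFKBIA. They were found on the array by the gene symbol, by the gene identifier or by the human symbol in the probe description, and all 10, on 13 probes, were among the 15358 genes tested. Where a gene had more than 1 probe, the brightest over the 15 arrays represented it, and the other probe was kept and is given beside it.

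Total RNA from biceps brachii muscle of 15 cattle (Bos taurus, called cows in the design text), collected at slaughter, was measured on Agilent bovine oligonucleotide arrays with 1 colour and 1 array per animal. The study compared 8 animals that received oral prednisolone, a man-made glucocorticoid, at 30 mg a head each day for 35 days (P25 to P32) with 7 control animals (C17, C18 and C20 to C24). The RNeasy Mini kit was used for control RNA, and TRIzol with RNeasy MinElute cleanup for RNA from prednisolone-treated muscle, so that treatment and extraction cannot be told apart. The treatment text of the control samples names Finaplix, Revalor, and Revalor with the glucocorticoid dexamethasone, while each of these samples is itself labelled as a control; the sources used here do not say whether any control animal received them. They give no age or breed either. In whole muscle, fewer cells of a type and less RNA per cell cannot be told apart.

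Prednisolone enters the cell, binds the glucocorticoid receptor (NR3C1), and the receptor then binds DNA at glucocorticoid response elements and recruits the transcription machinery. Genes that respond directly include transcription factors that pass the signal on, inhibitors of inflammatory signalling, and brakes on growth factor and nutrient signalling. In skeletal muscle, several of them are known from the breakdown of protein and amino acids during glucocorticoid excess or fasting. Many respond within hours, and their transcripts can also respond to fasting, stress and growth factors.

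Values are log2 intensities after each array was shifted to a common 75th percentile, and a difference is prednisolone minus control, so that -1 is a halving. The 75th percentiles lay between 10.56 and 10.76 before the shift. Muscle fibre markers were bright on all arrays: myoglobin (MB) averaged 18.74 ± 0.12 (SD, 7 controls) and 18.61 ± 0.16 (SD, 8 treated animals), and the log2 of the summed intensity of 11 of 12 fibre markers ran from 20.85 to 21.18 in controls and from 20.75 to 21.08 in treated animals. Some libraries stood apart. Testis germ cell transcripts were highest on C20 among the controls and on P31 among the treated animals, and thymocyte transcripts were highest on C17 among the controls and on P30 and P32 among the treated animals. The germ cell transcripts, a list drawn from earlier results of these data, also differed between the group means. Of 12 measured, 11 were lower in treated animals, with a median difference of -2.03 and none called. Only 3 of the 12 exceeded background by the scanner's stricter flag on all 8 treated arrays. The protamine PRM1 was at 14.53 ± 2.69 (SD, 7 controls) and 9.51 ± 5.20 (SD, 8 treated animals). Animals of the groups overlapped. The score, the mean deviation of the list's genes with 15 values from their means, was -1.04 in C17 and -1.17 in C18. It was 1.46 in P30, 3.79 in P31 and -0.57 in P32. Adipocyte (7 of 8), smooth muscle and pericyte (5 of 6) and Schwann cell markers (5 of 5) mostly had positive differences, with medians of 0.29, 0.37 and 0.37 and none called. So did hepatocyte (10 of 11) and erythrocyte markers (4 of 4), with medians of 0.97 and 0.21 and none called. The stricter flag was met on all 8 treated arrays by 6 of 8 adipocyte and 3 of 5 Schwann cell markers. It was met by 5 of 11 hepatocyte and 1 of 4 erythrocyte markers. The hepatocyte and thymocyte lists were also drawn from earlier results of these data. Muscle fibre (9 of 11) and endothelial markers (6 of 8) mostly had negative differences, with medians of -0.10 and -0.14 and none called. The part of all these transcripts in the regulators' values was not tested beyond the correlations given below. Results are also given without C20 and P31, and without 7 arrays with transcripts of other tissues (C17, C20, C22, C24, P30, P31 and P32). The arrays kept in that setting were not free of them: hepatocyte scores were highest of all 15 arrays on P26 (1.64) and P28 (1.44). C23 had a germ cell score of 1.53, against 1.46 on P30. On each of the 8 treated arrays, all 13 member probes exceeded background by the scanner's stricter flag (called well above background) and none was saturated; such flags for the control arrays were not used here. The 2 spots of a probe differed by a median of between 0.024 and 0.27 log2 units on an array, while a probe ranged over the animals by between 1.05 and 2.71.

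None of the 10 genes passed the test. The adjusted p was 0.999 for each in the limma fit over all genes, in which 0% of genes were called, and an exact Wilcoxon test over all genes with the same adjustment also called 0%. Before adjustment, 498 genes (3.24%) had a p under 0.05 with limma and 425 with the Wilcoxon test. Of the 10 regulators, 1, SGK1, was among the 1.6% of genes with a lower value at that unadjusted limit, and 1, ERRFI1, was among the 1.65% with a higher one.

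The difference was negative for 9 of the 10 regulators, against 47.8% of all genes, and the exception was ERRFI1. The median difference over the 10 was -0.24, against 0.010 over all genes. This direction is opposite to the one the genes are known for, and the counts are a description, since the genes were chosen with earlier results of these data known. Weighting arrays by their quality left 6 negative differences and a median of -0.048, and leaving out the 7 arrays named above, which kept 3 controls and 5 treated animals, left 9 and a median of -0.41. For every regulator except ERRFI1, the 95% interval ended below a doubling in treated animals; 8 of the 10 did so when any of 6 animals (C17, C23, P25, P28, P29 or P31) was left out. Smaller increases lay inside the intervals of 8 of these 9 genes, the exception being SGK1, whose interval lay below 0.

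**Figure D1:**
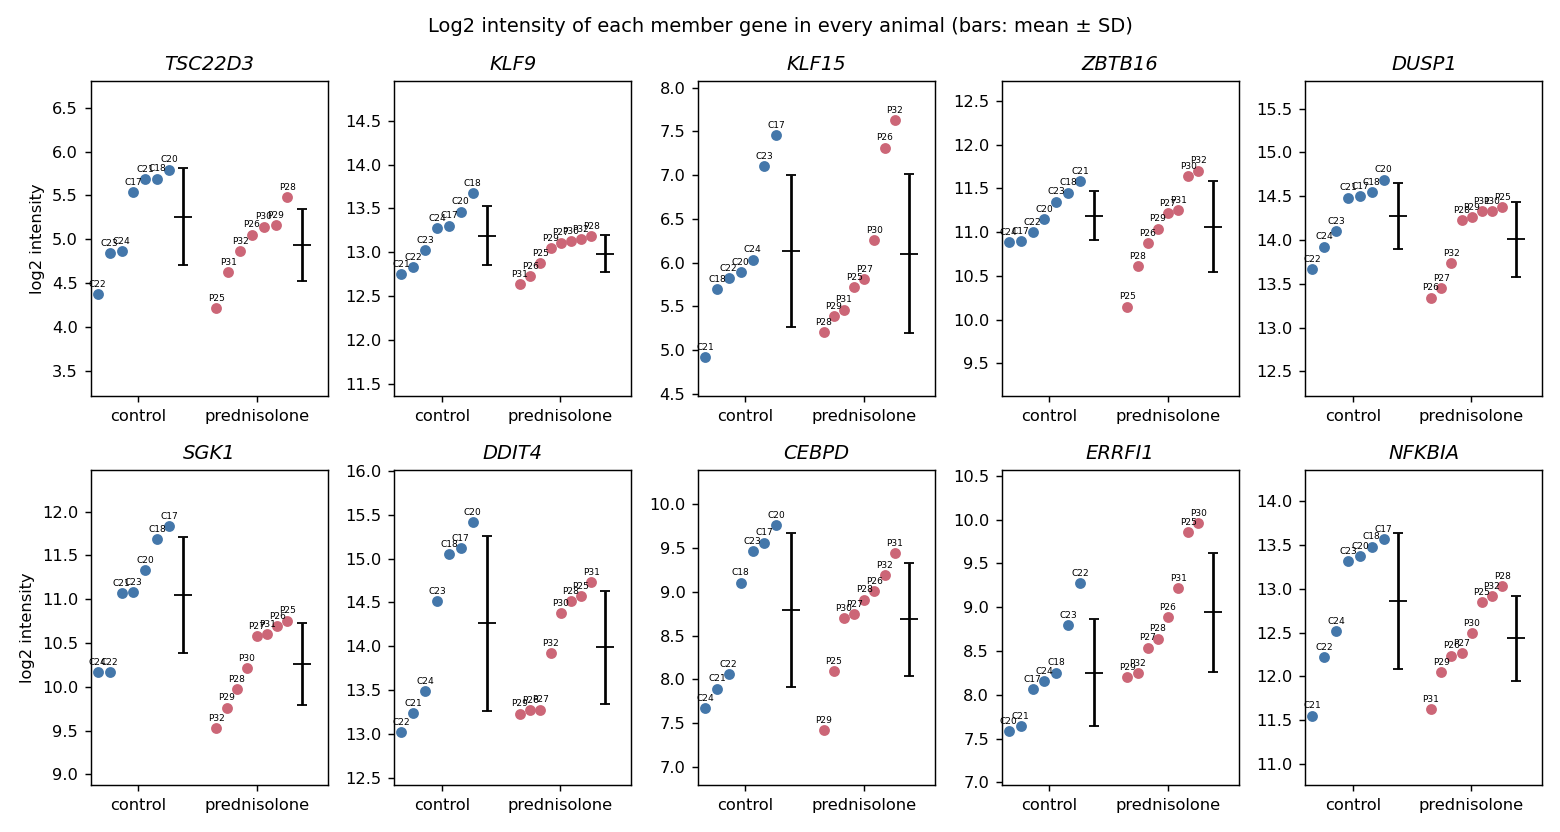
Log2 intensity (vertical axis) of the brightest probe of each of the 10 regulators in every animal, controls in blue and prednisolone-treated animals in red, sorted by value within a group; bars give mean ± SD. Every panel spans the same number of log2 units, and in every panel the groups overlap; SGK1 lies lowest against its controls and ERRFI1 highest.

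**Figure D2:**
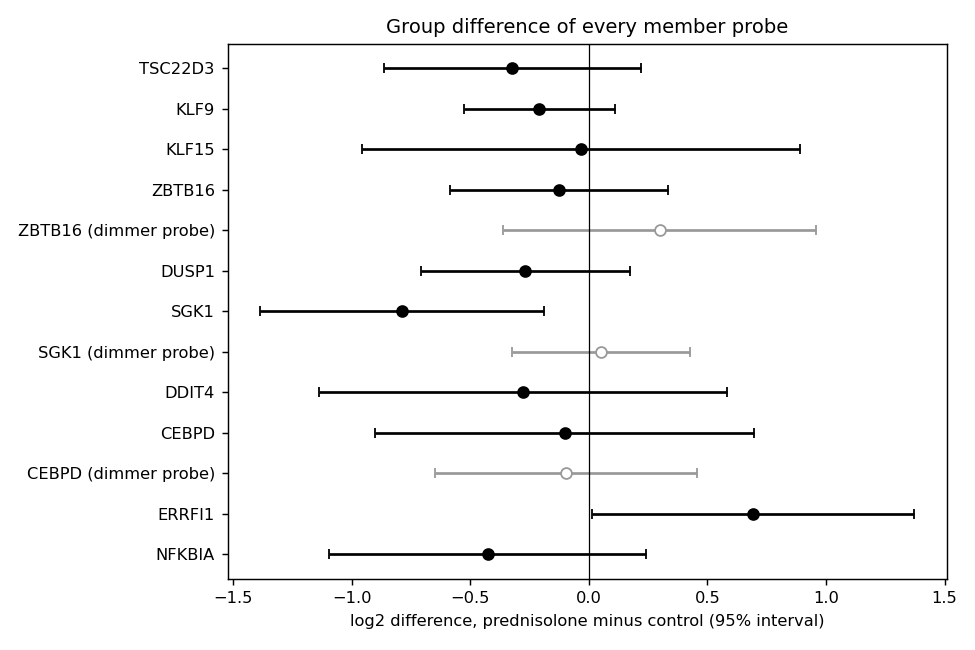
Difference in mean log2 intensity, prednisolone minus control (horizontal axis), with its 95% interval for all 13 probes; filled points are the brightest probe of a gene and open grey points the dimmer one. SGK1 at -0.79 has an interval below 0 on its brighter probe only, and ERRFI1 at 0.69 an interval just above 0.

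Among the transcription factors, KLF9, a Krüppel-like repressor that is induced by glucocorticoids in many tissues, ranged least over the 15 animals, by 1.05 log2 units. Its controls had a lowest value of 12.75, a median of 13.27 and a highest value of 13.68, and the treated animals 12.63, 13.08 and 13.19. P26 and P31 lay just under the lowest control, the other treated animals within the control range, and all 8 below the control median. The means were 13.19 ± 0.34 (SD, n = 7) and 12.98 ± 0.21 (SD, n = 8), a difference of -0.21 (95% interval -0.53 to 0.11, exact permutation p = 0.166, two-sided and unadjusted). Without C18, the highest control, it was -0.13.

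KLF15 drives genes of branched-chain amino acid and proline breakdown in muscle. Its controls measured 4.92 at the lowest, 5.90 at the median and 7.46 at the highest, and the treated animals 5.20, 5.77 and 7.63. Both groups held a few high animals, C17 and C23 among the controls and P26 and P32 among the treated, and the rest lay together. The difference of -0.034 (95% interval -0.96 to 0.89, exact permutation p = 0.939) was the smallest of the 10, on means of 6.13 ± 0.87 (SD, n = 7) and 6.10 ± 0.91 (SD, n = 8), and its sign depended on which animal was left out, from -0.25 without P32 to 0.19 without C17.

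ZBTB16, a zinc finger repressor of the BTB family, was measured by 2 probes. On the brighter, described as a region 3' of the human gene, the controls measured 10.88 at the lowest, 11.15 at the median and 11.58 at the highest, and the treated animals 10.15, 11.13 and 11.70. Treated animals held both the lowest value, in P25, and the highest values, in P30 and P32, and 4 lay on each side of the control median. The difference was -0.13 (95% interval -0.59 to 0.33, exact permutation p = 0.583) on this probe and 0.30 (95% interval -0.36 to 0.96) on the other, so the probes had opposite signs. Without the 7 arrays named above, the brighter probe gave -0.68 (95% interval -1.24 to -0.12), and no regulator was called there. The low mean of the other probe in controls included a value of 6.46 in C17, and the other controls measured 7.91 or more.

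CEBPD, a C/EBP transcription factor of the acute phase response, spread widely among the controls. Their values on the brighter probe were 7.68 at the lowest, 9.11 at the median and 9.77 at the highest, and those of the treated animals 7.43, 8.83 and 9.44. C17, C18, C20 and C23 lay at 9.11 or above and C21, C22 and C24 at 8.06 or below, with the treated animals on both sides of that gap and inside it. The difference was -0.10 (95% interval -0.90 to 0.70, exact permutation p = 0.798), and the second probe gave -0.097 (95% interval -0.65 to 0.45). Leaving out P29, the lowest animal, turned the value of the brighter probe to 0.078, and without the 7 arrays it was -0.39.

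Among the inhibitors of inflammatory signalling, TSC22D3 (GILZ) holds back NF-kappaB and AP-1 and is one of the most widely used readouts of glucocorticoid action. It was measured by 1 dim probe designed on an expressed sequence tag, and named here only by its description. The controls measured 4.38 at the lowest, 5.54 at the median and 5.80 at the highest, and 7 treated animals 4.22, 5.05 and 5.48; neither spot of the probe was found by the scanner software on P27. C17, C18, C20 and C21 lay above every treated animal and C22, C23 and C24 among them. The difference was -0.32 (95% interval -0.86 to 0.22, n = 7 and 7, exact permutation p = 0.237), and -0.20 without P25, the lowest animal. A value for P27 taken from its scanner signal, 5.07, lay inside the range of the other treated animals.

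NFKBIA encodes IkappaB-alpha, which keeps NF-kappaB in the cytoplasm. Its controls measured 11.55 at the lowest, 13.31 at the median and 13.57 at the highest, and the treated animals 11.62, 12.38 and 13.03. C17, C18, C20 and C23 lay within 13.31 to 13.57, above every treated animal, while C21, C22 and C24 lay within the treated range or just under it. The means of 12.86 ± 0.77 (SD, n = 7) and 12.43 ± 0.48 (SD, n = 8) differed by -0.43 (95% interval -1.09 to 0.24, exact permutation p = 0.213). The value was -0.65 without C21 and -0.23 without C20 and P31.

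DUSP1, a phosphatase that switches off p38 and JNK kinases, was a bright signal. The controls measured 13.67 at the lowest, 14.48 at the median and 14.69 at the highest, and the treated animals 13.34, 14.24 and 14.38. Treated animals formed a group of 5 between 14.23 and 14.38 and a group of 3 (P26, P27 and P32) at 13.74 or below, and all 8 lay below the control median. The difference was -0.27 (95% interval -0.71 to 0.17, exact permutation p = 0.224), and -0.17 without P26, the lowest animal.

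Among the regulators of growth factor and nutrient signalling, SGK1, a kinase that acts alongside AKT on ion transport, FOXO factors and cell survival, had the lowest difference of the 10. On the brighter probe the controls measured 10.17 at the lowest, 11.08 at the median and 11.83 at the highest, and the treated animals 9.53, 10.39 and 10.76. C17, C18, C20, C21 and C23 lay above every treated animal, and C22 and C24 lay inside the treated range. The means were 11.05 ± 0.66 (SD, n = 7) and 10.26 ± 0.47 (SD, n = 8), which is 1.73-fold lower in treated animals. The difference of -0.79 (95% interval -1.39 to -0.19, exact permutation p = 0.0218, two-sided and unadjusted, limma adjusted p = 0.999) was negative in each setting in which this probe was used alone. With array weights it was -0.55, with an interval that included 0 (-1.14 to 0.047).

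The second SGK1 probe did not share this difference. It measured 5.75, 6.42 and 6.80 (lowest, median and highest) in controls and 5.74, 6.51 and 6.74 in treated animals. C20 and P31 were the lowest animal of each group on it, and the groups otherwise lay together. Its difference was 0.052 (95% interval -0.33 to 0.43), and across the 15 animals, with group means removed, the 2 probes had a Pearson correlation of -0.081 (permutation p = 0.792). Both probes carry the same gene identifier; the brighter is described by SGK, an older symbol of SGK1, and the other as a predicted transcript variant. For comparison, the 2 probes of CEBPD correlated at 0.90 and those of ZBTB16 at 0.64 (permutation p = 3e-05 and 0.00046; adjusted over the 3 genes 9e-05 and 0.00069), with Spearman rho of 0.89 and 0.84 against 0.15 for SGK1 (permutation p = 0.629). Without the 2 animals farthest from the median of the brighter probe, Pearson r was 0.022 for SGK1, 0.87 for CEBPD and 0.71 for ZBTB16. Averaging both SGK1 probes gave a difference of -0.37. The 2 spots of the dimmer SGK1 probe differed by a median of 0.27 log2 units and by up to 0.84. Both values were the highest among the member probes. The SD between animals on it was 0.37 in controls and 0.31 in treated animals. The median gap was 0.067 on the brighter probe and between 0.024 and 0.16 on the CEBPD and ZBTB16 probes. The part of spot noise in the difference and correlation of the dimmer probe was not tested.

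DDIT4 (REDD1) restrains mTORC1 and with it protein synthesis. Its controls measured 13.02 at the lowest, 14.51 at the median and 15.42 at the highest, and the treated animals 13.23, 14.15 and 14.73. C17, C18 and C20 lay above every treated animal, C21 and C22 lay at 13.23 and 13.02 beside the lowest treated animal, P29, and the controls left a gap of 1.02 between C23 and C24. With means of 14.26 ± 0.998 (SD, n = 7) and 13.99 ± 0.65 (SD, n = 8), the difference was -0.28 (95% interval -1.14 to 0.58, exact permutation p = 0.523). It was -0.084 without C20 and 0.023 with array weights.

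ERRFI1 (MIG6), a feedback inhibitor of EGF receptor family kinases, was the 1 regulator with a positive difference. The controls measured 7.58 at the lowest, 8.15 at the median and 9.28 at the highest, and the treated animals 8.20, 8.76 and 9.96. All 8 treated animals lay above the control median, P25 and P30 highest, and C18, C22 and C23 lay within the treated range. The means were 8.25 ± 0.61 (SD, n = 7) and 8.95 ± 0.68 (SD, n = 8), which is 1.61-fold higher in treated animals. The difference was 0.69 (95% interval 0.012 to 1.37, exact permutation p = 0.0625, two-sided and unadjusted, limma adjusted p = 0.999). It was 0.35 with array weights (95% interval -0.34 to 1.05). Leaving out 1 animal also gave intervals that included 0, among them those without C17, without C18 and without C20. With 1 animal left out, the difference was lowest without P30, at 0.55.

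No regulator separated the groups without overlap, while 32 genes (0.208%) did so over the whole array. Of the 9 regulators with a value in all 15 animals, 4 (KLF9, DUSP1, SGK1 and NFKBIA) had all 8 treated animals below the control median, as had 1.52% of the 11288 genes with 15 values; 1, ERRFI1, had all 8 above it, as had 2.14%. The count of 4 rested on the high controls: it was 1, SGK1, without C17, without C18 or without C20. Without C20 and P31 together it was also 1, with 3.43% of genes in that state, and with quantile normalization it was 2, NFKBIA and SGK1.

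For every regulator the range over the controls exceeded the difference between the group means. C17, C18, C20 and C23 were the 4 highest controls for DDIT4, CEBPD, NFKBIA and SGK1, though for SGK1 C21 lay within 0.0048 of C23. The median regulator lay 0.49 above its control mean in C17, 0.37 in C18 and 0.35 in C20, and -0.62 from it in C22, -0.53 in C21 and -0.35 in C24. Treated animals lay between those extremes, from -0.45 in P29, in which all 10 regulators lay below their control means, to 0.058 in P28. Leukocyte markers also ranged more widely among the controls. The log2 of the summed intensity of 10 of 12 markers ran from 11.10 to 13.59 in controls and from 11.40 to 12.53 in treated animals. The leukocyte score was highest in C17, and 9 of 12 markers had a negative difference. CD3D, CD3E, CD3G and CD8A are on both the leukocyte and the thymocyte list, and C17 also had the highest thymocyte score (4.51). PTPRC, the common leukocyte antigen, measured 8.18 ± 1.11 (SD, n = 7) and 7.89 ± 0.72 (SD, n = 8). Their part in the regulators' values was not tested beyond the correlations given below.

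**Figure D3:**
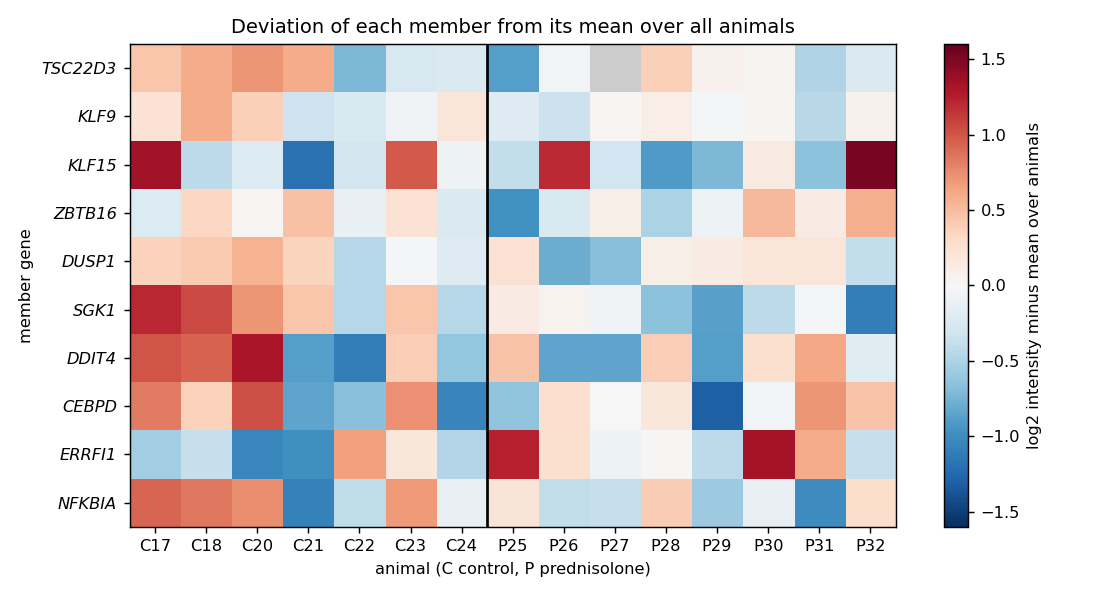
Deviation of each regulator (vertical axis) from its mean over all animals in log2 units (colour) for every animal (horizontal axis), with a line between controls and treated animals; grey is the animal without a TSC22D3 value. C17, C18 and C20 are red for most regulators and C22 blue for most, while the treated animals have paler and mixed columns.

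Correlations between animals were computed on deviations from the group mean for the 36 pairs of the 9 regulators with 15 values. Of these, 27 were positive, with a median r of 0.13, and none passed an adjusted p of 0.05 by Pearson's r, while 2 did by Spearman's rho. KLF9 and NFKBIA had r = 0.74 (permutation p = 0.00584, adjusted p = 0.106) and rho = 0.79 (permutation p = 0.00205, adjusted p = 0.0369); r was 0.78 within the controls, 0.64 within the treated animals, and 0.50 without C21 and C22. DUSP1 and DDIT4 had r = 0.70 (permutation p = 0.00587, adjusted p = 0.106) and rho = 0.73 (permutation p = 0.00168, adjusted p = 0.0369), with 0.73 in controls, 0.72 in treated animals, and 0.58 without C22 and P26.

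DDIT4 was also high where CEBPD and NFKBIA were high. DDIT4 and CEBPD had r = 0.72 (permutation p = 0.0105, adjusted p = 0.116) and rho = 0.74 (permutation p = 0.00962, adjusted p = 0.115), with 0.93 in controls, 0.34 in treated animals, and 0.61 without C21 and C22. DDIT4 and NFKBIA had r = 0.69 (permutation p = 0.0129, adjusted p = 0.116) and rho = 0.72 (permutation p = 0.0134, adjusted p = 0.121), with 0.91 in controls, 0.23 in treated animals, and 0.48 without C21 and C22. The controls fell into a set of 4 and a set of 3 animals for these genes, and the relation within these sets was not tested. P31, with high DDIT4 and low NFKBIA, departed most from the relation, and without C20 and P31 its r was 0.89 (adjusted p = 0.0421). Whether r differed between the groups was not tested.

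**Figure D4:**
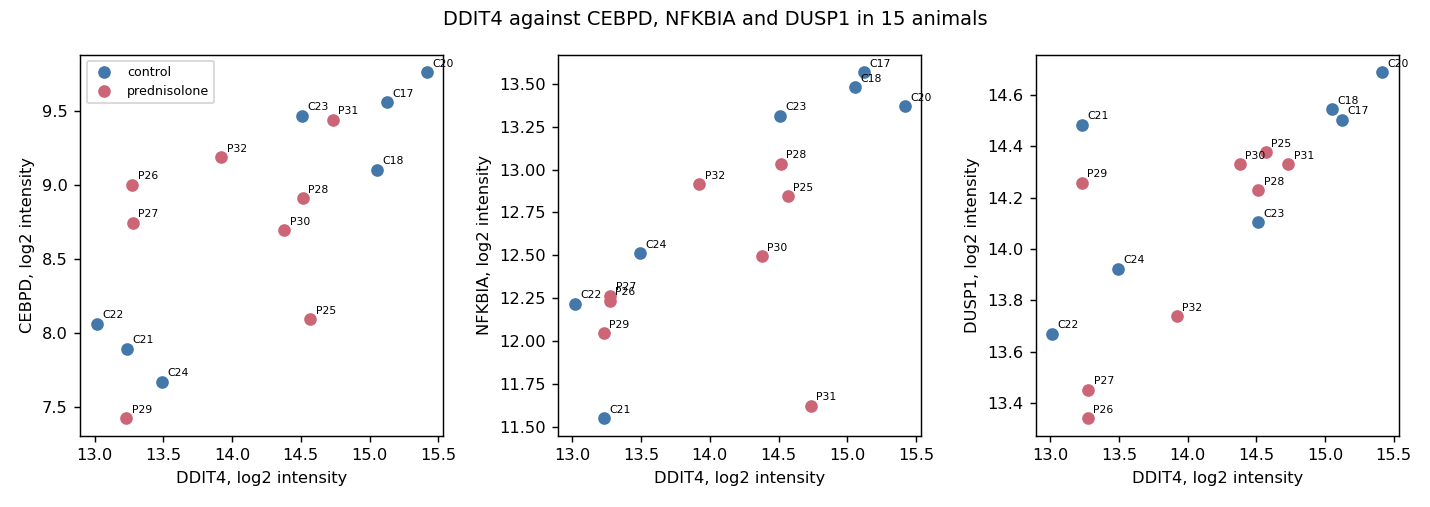
Log2 intensity of CEBPD, NFKBIA and DUSP1 (vertical axes) against DDIT4 (horizontal axis) in the 15 animals, controls in blue and treated animals in red. C17, C18, C20 and C23 lie together at high DDIT4 with high CEBPD and NFKBIA, C21, C22 and C24 lie at the other end, and P31 lies apart in the NFKBIA panel.

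The 9 regulators were also set against the mean scores of 12 gene and marker lists, 108 relations in all, and none passed an adjusted p of 0.05. KLF15 was lower in animals with higher muscle fibre marker scores, with r = -0.77 (rho = -0.73, permutation p = 0.00171 for r, adjusted p = 0.185, and -0.71 without the 2 farthest animals). DDIT4 and the leukocyte score had r = 0.64 (rho = 0.72, permutation p = 0.0257 for r, adjusted p = 0.402, and 0.41 without the 2 farthest animals). Pearson r with that score was 0.59 for CEBPD, 0.58 for NFKBIA and 0.54 for KLF9 (rho 0.55, 0.69 and 0.65, permutation p = 0.0401, 0.0471 and 0.0677 for r, adjusted p = 0.481, 0.508 and 0.543). Without the 2 farthest animals r was 0.36 for CEBPD, 0.41 for NFKBIA and 0.48 for KLF9. With the score of other glucocorticoid-induced genes, DDIT4 had r = 0.63 and CEBPD r = 0.62 (rho 0.63 and 0.55, permutation p = 0.0274 and 0.0268 for r, adjusted p = 0.402 for both), and 0.56 and 0.57 without the 2 farthest animals. CEBPD and the endothelial score had r = -0.68 (rho = -0.68, permutation p = 0.0163 for r, adjusted p = 0.402, and -0.53 without the 2 farthest animals). With that score r was -0.66 for DDIT4 and -0.64 for SGK1 (rho -0.66 and -0.52, permutation p = 0.0298 and 0.0292 for r, adjusted p = 0.402 for both). Without the 2 farthest animals r was -0.44 for DDIT4 and -0.52 for SGK1. For ERRFI1 alone it was positive, with r = 0.35 (permutation p = 0.209, adjusted p = 0.65).

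Over the 11288 genes with 15 values, the gene whose deviations were most like those of each regulator was taken as a description, with the highest of that many correlations over 15 animals. KLF9 was most like ARRDC2, an arrestin-domain gene (r = 0.88), and KLF15 was most like PRKAG2, a subunit of AMP-activated protein kinase (r = 0.91). For ZBTB16 it was EXOC3 (r = 0.91), for DUSP1 CAMSAP3 (r = 0.80), and for SGK1 MAGED4 (r = 0.76). DDIT4 was most like TIPARP, an ADP-ribosyltransferase (r = 0.86), which was second for CEBPD (r = 0.85) after the kinase gene SNF1LK (r = 0.86). TIPARP is also on the list of other glucocorticoid-induced genes, so its likeness to DDIT4 and CEBPD is not separate from their correlation with that score. ERRFI1 was most like IER5, an immediate early gene (r = 0.84), and NFKBIA was most like RGS1, a regulator of G protein signalling in leukocytes (r = 0.89). IER5 is likewise on the list behind the score of immediate early genes given below.

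Slide and scan day were known for the treated arrays only, on 5 slides and 3 scan days. Of these slides, 3 held a pair of animals each, and for the 9 regulators with 15 values the exact permutation p that pairs were more alike ran from 0.133 for KLF9 to 0.733, where 15 pairings allow no p below 0.0667.

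Other glucocorticoid-induced genes, such as the receptor co-chaperone FKBP5 and the clock gene PER1, formed the closest comparison. Of 36 listed, 34 were measured, of which 24 lay below 0 and 10 above it, and the median was -0.12 against -0.24 for the 10 regulators; no member was called. At an unadjusted p under 0.05, 1 was higher and 2 were lower. TXNIP, an inhibitor of glucose uptake, differed by -0.82 and PDK4, which restrains glucose oxidation, by -0.95, while the transcription factor NFIL3 differed by 0.56 with all 8 treated animals above the control median. FKBP5 differed by -0.19 and PER1 by 0.14.

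Genes that glucocorticoids are known to repress had the opposite split: of 16 measured, 11 lay above 0 and 5 below it, with a median of 0.11 and none called. The chemokine CCL2 averaged 8.14 ± 1.11 (SD, 7 controls) and 9.93 ± 1.36 (SD, 8 treated animals), a difference of 1.79. The inducible nitric oxide synthase NOS2 differed by -0.87 with all 8 treated animals below the control median. The matrix protease MMP3 differed by 0.78, on a probe well above background on 1 of 8 treated arrays. Only 7 of the 16 were well above background on all 8 treated arrays.

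The families and partners of the regulators held no called gene either. Of 10 other KLF genes, 7 had a negative difference (6 with medians equalized), among them KLF11, at 11.89 ± 0.51 (SD, 7 controls) and 11.34 ± 0.33 (SD, 8 treated animals), with all 8 treated animals below the control median. KLF7 differed by -0.24 and KLF13 by -0.17. Of 5 measured genes of amino acid breakdown and other KLF15 targets, 4 had a positive difference, including PRODH, the first enzyme of proline breakdown, at 0.36, and BCAT2, the mitochondrial branched-chain aminotransferase, at 0.052; TAT, at 0.23, was well above background on 1 of 8 treated arrays. Of 5 other genes with a C/EBP name or of that family, 3 were positive, including the stress factor DDIT3 at 0.41 and CEBPG at 0.13. CEBPZ, grouped here by its name only, was at -0.12.

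All 3 other TSC22 genes had a positive difference, between 0.031 for TSC22D1 and 0.10 for TSC22D2, with TSC22D4 at 0.088, where TSC22D3 had a negative one. Of 11 measured NF-kappaB genes and inhibitors, 8 were negative, as NFKBIA was (6 with quantile normalization, 7 with medians equalized). IKBKB, a kinase that marks IkappaB for destruction, was at -0.19 and RELB, a subunit, also at -0.19 with all 8 treated animals below the control median. REL, at -0.66, was not well above background on any treated array. Of 9 other dual-specificity phosphatases, 5 were positive, with DUSP7 at 0.29 and all 8 treated animals above the control median; DUSP4 at -0.75 and DUSP5 at -0.51 were dim probes, well above background on 4 and 0 treated arrays.

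Of 10 further brakes or subunits of the mTORC1 pathway, 8 were positive where DDIT4 was negative (7 with quantile normalization). TSC1, a subunit of the complex that holds mTORC1 off, was at 0.43 with all 8 treated animals above the control median, AKT1S1 was at 0.17 and RPTOR at -0.36. Of 7 SGK1 relatives and substrates, 4 were positive (3 with cyclic loess), among them the substrates NDRG1 and NDRG2, both at 0.20; SGK2, at -0.74, was not well above background on any treated array. Of 7 EGF receptor family genes and inhibitors of growth factor signalling, 5 were positive (4 with values as deposited or cyclic loess). SPRY4 and SPRY2, which are not specific to EGF receptors, were at 0.35, with all 8 treated animals above the control median, and at 0.25. The receptor ERBB2 was at 0.16 and EGFR at 0.0039. LRIG1, at 0.14, was not well above background on any treated array.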

How the data were processed

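The table deposited by the authors gives a linear intensity for each spot of each array. Per the labels' design text, each slide was scanned at a high and a low sensitivity and Feature Extraction gave a background-subtracted, detrended signal; its version was 9.5.1.1 per the file headers, and R 2.11.1 was used per the submitters' processing notes. How arrays were scaled to each other was not given in the sources used here. Scanner files were used for the 8 treated arrays only, for probe names, flags (well above background, saturated; other columns deposited by the authors) and slides. Their log2 signal correlated with the table across spots with r from 0.999789 to 0.999991, and empty cells of the table were spots not found.

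Log2 was then taken, the spots of a probe were averaged, and all arrays were shifted to a common 75th percentile over the 14324 probes with 15 values. Of 21475 probes, 17329 could be named, through the reference's RefSeq table and the array annotation. Probes with at least 3 values per group were tested (20894 probes, 15358 genes) by lmFit and eBayes (no trend) of limma 3.58.1 under R 4.3.3. P-values were adjusted by Benjamini-Hochberg over the 15358 genes, a call needed an adjusted p under 0.05, and 95% intervals came from the fit. The fit was checked on simulated data. Exact permutation tests used all 6435 regroupings of the animals (3432 for TSC22D3), and correlations 100000 permutations within groups, two-sided. Replicates are separate animals, 1 array each, and their number limits the precision.

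The members and the gene lists were chosen with earlier results of these data known. Named genes are all members and their probes, the 3 genes of each list with the smallest p, defining cell markers, and for each member the most correlated gene; FKBP5, PER1 and TIPARP for CEBPD were added after their values were seen. Alternatives were other scalings, filters and probes, array weights, eBayes with trend, and animals left out. No genome build is named by the files, so no positions or sequences are given.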

Additional observations from a re-analysis of the deposited data

Results flagged for a closer look

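In 26 sets of values (each probe in each group), 1 animal stood far from the rest. On the dimmer SGK1 probe, P31 was the lowest treated animal at 5.74, and its gap to the next animal took up a share of 0.682 of the range over the treated animals. Chance sets an animal apart in this way in about 1 in 20 such sets. P31 was also the treated animal with the most testis germ cell transcripts, and C20, the control with the most, was the lowest control on this probe at 5.75; the part of these transcripts in the low values was not tested. On the brighter SGK1 probe P31 measured 10.60, within the range of the other treated animals.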

How the results depend on the processing

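In 32 alternatives that gave a count of regulators called, the count was 0, and the adjusted p of single regulators, where one was given, ran from 0.609 to 1. Of 292 values of single regulators, 272 kept the sign and 20 turned. TSC22D3 (-0.47 to -0.038), KLF9 (-0.28 to -0.058), DUSP1 (-0.45 to -0.15), NFKBIA (-0.65 to -0.18) and ERRFI1 (0.35 to 0.86) kept it in all that were run. With each animal left out in turn, KLF15 ran from -0.25 to 0.19, CEBPD from -0.29 to 0.078, ZBTB16 from -0.22 to 0.0033, DDIT4 from -0.48 to -0.084 and SGK1 from -0.93 to -0.66. Without the 7 arrays, which does not remove all transcripts of other tissues, ZBTB16 was -0.68, CEBPD -0.39, DDIT4 -0.49, DUSP1 -0.45 and SGK1 -0.93. The sign turned for KLF15 with quantile normalization (0.083), array weights (0.036) and without C20 and P31 (0.018), for DDIT4 (0.023) and CEBPD (0.075) with array weights, for ZBTB16 with the mean of its probes (0.086) or its other probe (0.30), and for SGK1 with its other probe (0.052). The weights were lowest for C20 (0.473), P31 (0.52) and C17 (0.544); the cause of these turns was not tested.

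The median difference of the regulators was -0.048 with array weights, -0.41 without the 7 arrays, and from -0.32 to -0.14 with 1 animal left out. Their count of negative differences ran from 6 to 9. The count of intervals ending below a doubling was 8 or 9 in each setting. The count with all treated animals below the control median, a description chosen after the data were seen, was 2 with quantile normalization, 1 without C20 and P31, and from 1 to 5 with 1 animal left out. Over all genes, 1 gene was called without C23 (ZNF696), without P31 and without C20 and P31 (both times PZP), and none in the other settings, so leaving out 1 animal gave from 0 to 1. Pairs of regulators past the threshold were 2 by Spearman's rho, 1 without C20 and P31, and from 0 to 1 with 1 animal left out. No paired analysis was possible because the groups share no animal numbers. The number of arrays limits the precision: the 95% intervals reached a median of 0.45 log2 units to each side over all genes, and signal over background was not known here for the controls.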

Other observations

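Immediate early genes, which respond within minutes to stress, stretch or growth factors and are often released by tissue handling, lay on the other side of 0 from the regulators. Of 18 listed, 17 were measured, 12 with a positive and 5 with a negative difference, and the median was 0.21; none was called by limma, and none had an unadjusted p under 0.05. IER3, an early gene of the apoptosis response, averaged 12.44 ± 0.83 (SD, 7 controls) and 13.21 ± 0.70 (SD, 8 treated animals), a difference of 0.77. CCN2, a matricellular growth factor, differed by 0.42 and IER2 by 0.23. Among the regulators, ERRFI1 had the highest correlation with the score of these genes across animals, with r = 0.59 (rho = 0.53, permutation p = 0.0286 for r, adjusted p = 0.402, and 0.64 without the 2 farthest animals), while DUSP1, often counted as an early gene itself, had r = 0.0066 (rho = 0.24, permutation p = 0.982 for r, adjusted p = 0.982).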
